A study of Mus musculus with 12 samples.

Results

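Transcripts of the MHC class II antigen presentation pathway were examined in RNA-seq of mouse mammary epithelium. The genes were the 6 rows of the deposited count table whose symbol is Cd74, H2-Aa, H2-Ab1, H2-Eb1, H2-DMa or Ciita, out of 27179 genes in all. All 6 passed the filter on low counts and were among the 14903 genes tested. Libraries came from basal and from luminal epithelial cells of female mice, whose age the labels do not give, and each of the 4 groups had 3 biological replicates. Controls had the strain Foxp1(fl/fl), in which both copies of the forkhead transcription factor gene Foxp1 are flanked by loxP sites. The knockouts had the strain MMTV-cre/Foxp1(fl/fl), so they carried the same floxed alleles plus Cre recombinase driven by the MMTV promoter, and every library came from a floxed animal. MMTV-driven Cre acts in mammary epithelium and, depending on the line, in other tissues including blood cells, and the labels do not name the line.

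MHC class II molecules are pairs of an alpha and a beta chain that carry peptides from endocytosed proteins to the cell surface, where CD4+ T cells read them. They are made with the invariant chain, which blocks the peptide groove until it is degraded in the endosome, and H2-DM then loads the peptide. Dendritic cells, macrophages and B cells make class II constitutively, and epithelial cells can make it after interferon gamma. The transactivator CIITA, which does not bind DNA itself, is recruited by factors on the X and Y boxes of class II promoters.

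Library totals ran from 9769361 to 11133908 counts, except 15449513 in luminal knockout-labelled replicate 3. The labelled cell types were checked against their markers: in the controls all 7 basal markers, such as Krt5 and Krt14, were lower in luminal cells, and all 7 luminal markers, such as Krt8 and Krt18, were higher. Levels were measured as CPM, counts scaled to library size. The basal markers summed to 134, 122 and 674 CPM in luminal controls and 306 to 732 CPM in luminal knockout-labelled libraries. In basal controls they summed to 16149 to 17403 CPM. The part of basal cells in the luminal class II values was not tested. Foxp1, the targeted gene, stood at 221, 213 and 160 CPM in basal controls against 212, 193 and 284 CPM in basal knockout-labelled libraries. Luminal controls had 82.3, 62.0 and 78.2 CPM of Foxp1 against 161, 150 and 155 CPM under the knockout label, a log2 fold of 1.07 (SE 0.19, edgeR adjusted p = 0.0161). The luminal count therefore went against the label, although it includes reads from exons outside any deleted part. Those libraries are called knockout-labelled throughout, and each direction below rests on the labels.

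The promoters of H2-Aa and H2-Eb1 are shown because their transcripts ranked the libraries in a similar order and because the boxes through which CIITA acts can be read in them. Each line gives the 120 bases before the RefSeq start site on GRCm38.p6, 5′ to 3′ on the gene's strand, as chr17:34287824-34287943 on the minus strand for H2-Aa and chr17:34305747-34305866 on the plus strand for H2-Eb1. Capitals mark matches to the core of the X1 box (GCAAC), to a cAMP response element as found at the X2 box (TGACGTCA) and to the Y box (CTGATTGG).
H2-Aa: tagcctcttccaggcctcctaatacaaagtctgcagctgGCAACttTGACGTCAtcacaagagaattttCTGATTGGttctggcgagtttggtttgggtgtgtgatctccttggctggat
H2-Eb1: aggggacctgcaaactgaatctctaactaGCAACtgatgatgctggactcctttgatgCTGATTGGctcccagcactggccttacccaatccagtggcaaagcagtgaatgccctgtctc

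In H2-Aa the first base of the X1 core lay 81 bases before the start, that of the X2 element 74 and that of the Y box 51. H2-Eb1 held the X1 core at 91 bases and the Y box at 62, and no full X2 match. The matched motifs do not overlap one another in either promoter. Both strands of the 250 bases before each start were searched in 32851 RefSeq promoter windows, of which 3.83% held the Y box, 29.9% the X1 core and 1.55% the X2 element. An X1 core followed by a Y box on the same strand, 15 to 45 bases further on, was found in 38 windows (0.116%). RefSeq windows were matched for 3 of the 6 genes. The remaining matched gene, H2-DMa, has 2 listed start sites, and its windows held neither the Y box nor the X2 element. The first of them held an X1 core on the opposite strand, 7 bases before the start. These matches describe letters in the windows and are not evidence of binding.

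H2-Aa, H2-Ab1 and H2-Eb1 encode the chains themselves, the alpha and beta chains of I-A and the beta chain of I-E. They lie together on chromosome 17 (GRCm38), H2-Ab1 (Entrez 14961) at 34263227 to 34269418, H2-Aa (Entrez 14960) at 34282744 to 34287823 and H2-Eb1 (Entrez 14969) at 34305867 to 34316674. All 3 were detected in every library at low levels. In luminal cells, the mean H2-Eb1 level of the knockout-labelled libraries was 0.775 CPM against 4.66 CPM in controls, and the H2-Ab1 mean was 1.94 CPM against 6.51 CPM, but neither difference passed the adjusted threshold of 0.05.

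H2-Aa, in replicates 1, 2 and 3, stood at 4.25, 4.82 and 15.1 CPM in basal controls and at 3.55, 2.33 and 4.45 CPM in basal knockout-labelled libraries. Among luminal libraries, the controls had 0.936, 2.13 and 12.2 CPM and those labelled knockout 1.40, 0.716 and 1.87 CPM. Replicate 3 was by far the highest control in both cell types, and the control and knockout-labelled values overlapped in both. The H2-Aa log2 fold, knockout-labelled against control, was -1.23 in basal cells (SE 0.81, edgeR adjusted p = 0.838) and -1.91 in luminal cells (SE 0.85, edgeR adjusted p = 0.278).

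H2-Ab1 stood at 7.47, 9.11 and 11.6 CPM in basal controls and at 6.59, 3.31 and 7.82 CPM in basal knockout-labelled libraries, which overlapped. Luminal values were 2.81, 6.47 and 10.3 CPM with the control label and 1.8, 1.43 and 2.60 CPM with the knockout label. The highest luminal knockout-labelled library lay just below the lowest control, so the groups did not overlap. The H2-Ab1 log2 fold was -0.67 in basal cells (SE 0.46, edgeR adjusted p = 0.851) and -1.73 in luminal cells (SE 0.48, edgeR adjusted p = 0.0815).

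H2-Eb1 stood at 2.90, 4.65 and 16.3 CPM in basal controls and at 1.82, 1.70 and 3.15 CPM in basal knockout-labelled libraries. The luminal controls had 1.87, 2.87 and 9.25 CPM, and the luminal knockout-labelled libraries 0.698, 0.626 and 1.0 CPM. Control replicate 3 was again the highest, the basal groups overlapped and the luminal groups did not. The H2-Eb1 log2 fold was -1.84 in basal cells (SE 0.71, edgeR adjusted p = 0.402) and -2.55 in luminal cells (SE 0.76, edgeR adjusted p = 0.0988).

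Cd74 encodes the invariant chain and lies apart from the chains, on chromosome 18 (GRCm38, Entrez 16149, 60803849 to 60812652). It stood at 50.9, 69.9 and 39.9 CPM in basal controls and at 46.8, 14.6 and 28.4 CPM in basal knockout-labelled libraries. Among luminal libraries, the controls had 7.02, 11.8 and 28.0 CPM and those labelled knockout 4.99, 2.51 and 5.87 CPM. The basal groups overlapped, and all 3 luminal knockout-labelled libraries lay below every luminal control. The Cd74 log2 fold was -0.84 in basal cells (SE 0.52, edgeR adjusted p = 0.793) and -1.8 in luminal cells (SE 0.55, edgeR adjusted p = 0.109).

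H2-DMa encodes the alpha chain of the peptide-loading molecule H2-DM (Entrez 14998, chromosome 17, 34119693 to 34139101). It stood at 2.80, 2.05 and 2.03 CPM in basal controls and at 3.04, 0.896 and 3.04 CPM in basal knockout-labelled libraries. Luminal values were 2.53, 2.59 and 3.32 CPM with the control label and 2.99, 4.56 and 4.74 CPM with the knockout label. Its luminal fold had the opposite sign to those of the chains, at 0.55 (SE 0.42, edgeR adjusted p = 0.557), and its basal fold was 0.01 (SE 0.43, edgeR adjusted p = 0.999), so neither was called. The RefSeq span of H2-DMa overlaps that of Brd2 by 3122 bases. Brd2 had 6659 to 15814 counts per library, and the strand setting of the counting is not given in the sources used here, so the H2-DMa level is uncertain.

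Ciita (Entrez 12265, chromosome 16, 10480014 to 10531064) encodes the class II transactivator and had 3 to 21 counts per library. It stood at 1.87, 1.07 and 1.94 CPM in basal controls and at 0.608, 0.627 and 1.30 CPM in basal knockout-labelled libraries. The luminal controls had 0.468, 0.555 and 0.302 CPM, and the luminal knockout-labelled libraries 0.499, 0.895 and 0.200 CPM, where the groups overlapped. The Ciita log2 fold was -0.94 in basal cells (SE 0.52, edgeR adjusted p = 0.712) and 0.22 in luminal cells (SE 0.60, edgeR adjusted p = 0.900). Its span overlaps Dexi by 858 bases, a gene with 68 to 207 counts, so part of these few counts is uncertain too.

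**Figure D1:**
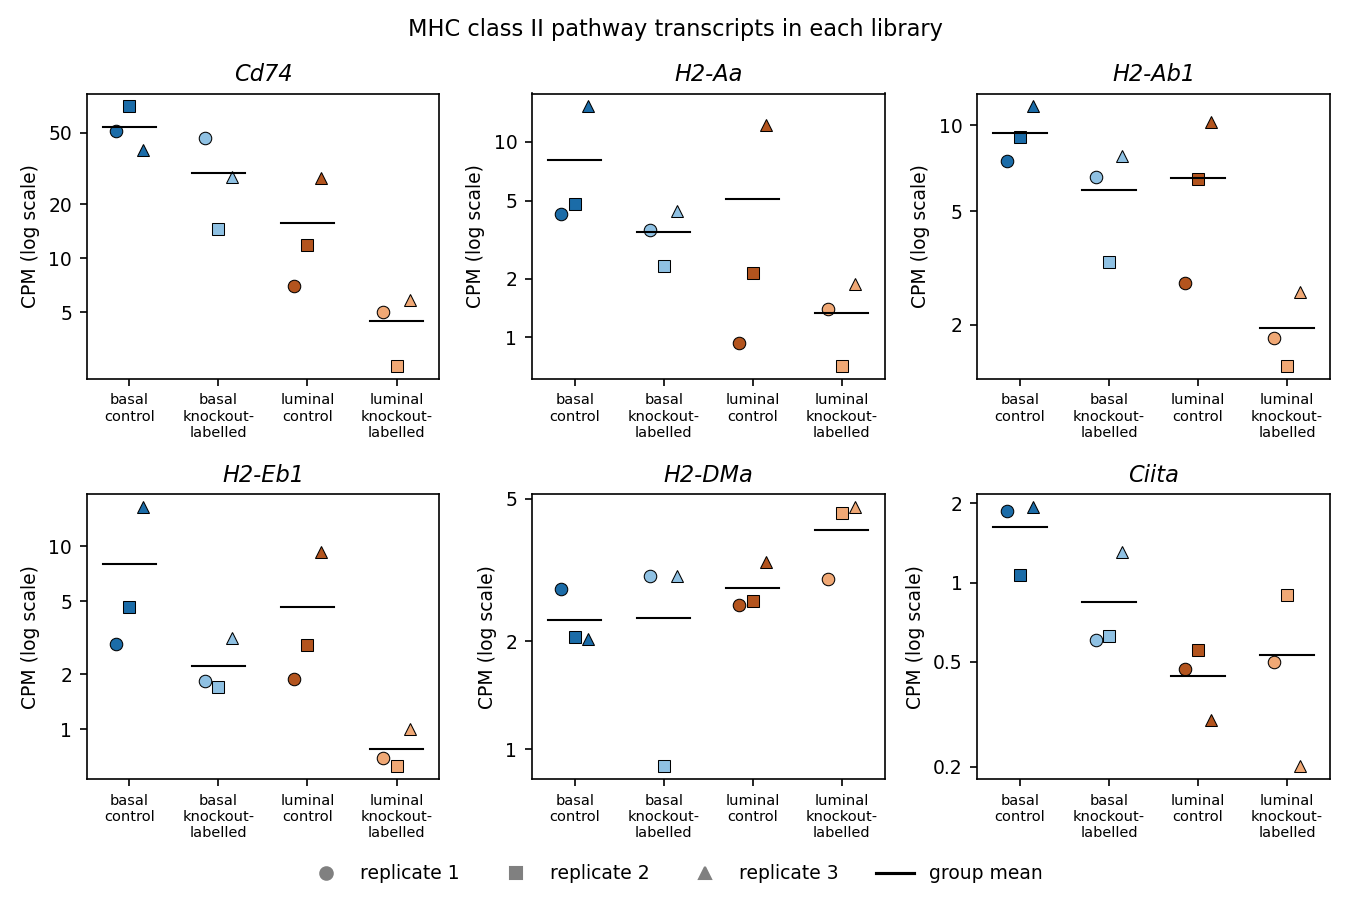
CPM on a log scale (y axis) in each of the 12 libraries, by group (x axis), for the 6 class II pathway genes; symbols give the replicate number and black lines the group means over 3 libraries. The luminal knockout-labelled libraries had the lowest group means of Cd74, H2-Aa, H2-Ab1 and H2-Eb1, and control replicate 3 had the highest H2-Aa, H2-Ab1 and H2-Eb1 values in both cell types.

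Between knockout-labelled and control libraries, 0 of the 6 genes were called in basal cells, where 0.671% of all tested genes were called, and 0 of 6 in luminal cells, where 3.03% were called. At an unadjusted p under 0.05, 1 of the 6 passed in basal cells (H2-Eb1), beside 8.88% of all tested genes, and 4 of 6 in luminal cells (Cd74, H2-Aa, H2-Ab1 and H2-Eb1), beside 17.2%. The median log2 fold of the 6 genes was -0.89 in basal cells and -1.76 in luminal cells, beside -0.01 and -0.03 over all tested genes. In luminal cells, 3 of the 6 (Cd74, H2-Ab1 and H2-Eb1) had knockout-labelled values that all lay below the controls, against 12.3% of all tested genes. In basal cells 0 of the 6 did, against 4.21% of all tested genes.

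The luminal calls depended on the fit. Luminal libraries that share a replicate number deviated together across the genotypes, and with that number as a block the luminal log2 fold was -2.36 for H2-Eb1 (edgeR adjusted p = 0.0132) and -1.69 for H2-Ab1 (edgeR adjusted p = 0.0319), while Cd74 had an adjusted p of 0.0927. DESeq2 called H2-Eb1, H2-Ab1 and Cd74 in luminal cells, with adjusted p-values of 0.0152, 0.0157 and 0.0204, and 0 of the 6 in basal cells. In luminal cells 7.36% of all tested genes were called with the block and 7.31% with DESeq2, which called 2.8% in basal cells. With limma-voom 0 of 6 were called in either cell type, beside 2.93% of all tested genes in luminal and 0.953% in basal cells. Luminal control replicate 3 set much of the size: without it the luminal log2 fold was -1.05 for Cd74, -0.17 for H2-Aa, -1.21 for H2-Ab1 and -1.56 for H2-Eb1. Without basal control replicate 3, H2-Eb1 was called in luminal cells (edgeR adjusted p = 0.0407), beside 4.69% of the genes of that fit.

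Whether the basal and luminal effects differ was tested as an interaction. None of the 6 genes was called (0 of 6, beside 0.275% of all tested genes), and 0 of 6 passed at an unadjusted p under 0.05 (beside 9.84%). DESeq2 and limma-voom also called 0, beside 2.38% and 0.148% of all tested genes. The difference in log2 fold, luminal minus basal, was -0.96 for Cd74 (SE 0.75), -1.05 for H2-Ab1 (SE 0.66) and 1.16 for Ciita (SE 0.80), with edgeR adjusted p-values of 0.788, 0.695 and 0.734. The chains' larger luminal than basal folds are therefore not shown to differ.

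The 2 cell types were then compared, which cannot say which cells of the gland transcribe the pathway, because other cell types' markers also differed (below). In the controls, Cd74 was lower in luminal than in basal cells by a log2 fold of -1.78 (SE 0.53, edgeR adjusted p = 0.0235), at 15.6 ± 11 against 53.6 ± 15.2 CPM (SD, n = 3 each). Ciita was lower too, by -1.85 (SE 0.56, edgeR adjusted p = 0.0248), at 0.441 ± 0.129 against 1.63 ± 0.48 CPM (SD, n = 3 each). Ciita counts were 12 to 21 in basal controls and 3 to 6 in luminal controls. It passed the filter on low counts through basal libraries, where it is high, so its call is not independent of that filter. For Cd74 and Ciita every luminal control lay below every basal control, as for 21.2% of all tested genes. These were 2 of 6 genes called, beside 33.2% of all tested genes.

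The Cd74 call was lost without basal control replicate 2 (edgeR adjusted p = 0.0756) or without luminal control replicate 1 (0.0769) or 2 (0.0793). The Ciita call was lost without any of 5 of the 6 controls, with edgeR adjusted p-values of 0.0721 and 0.0605 without basal replicates 1 and 3, and of 0.0659, 0.0515 and 0.0755 without luminal replicates 1, 2 and 3. The chains had log2 folds of -0.67 (H2-Aa), -0.53 (H2-Ab1) and -0.78 (H2-Eb1), with edgeR adjusted p-values of 0.549, 0.403 and 0.411, and their groups overlapped. H2-Aa was called without luminal control replicate 3, at a log2 fold of -2.45 (edgeR adjusted p = 0.0221), beside 29.0% of the genes of that fit. The H2-Aa fold was 0.16 without basal control replicate 3. The H2-DMa fold was 0.29 (SE 0.43, edgeR adjusted p = 0.635).

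Among the knockout-labelled libraries, Cd74 was lower in luminal cells by a log2 fold of -2.74 (SE 0.56, edgeR adjusted p = 0.00265) and H2-Ab1 by -1.58 (SE 0.48, edgeR adjusted p = 0.0213). These were again 2 of 6 called, beside 40.6% of all tested genes. Every luminal value of Cd74, H2-Aa, H2-Ab1 and H2-Eb1 lay below every basal value, 4 of the 6 genes, beside 27.1% of all tested genes. The folds of H2-Aa and H2-Eb1 were -1.35 and -1.49, with edgeR adjusted p-values of 0.228 and 0.141. When the fit held the knockout-labelled libraries alone, both were called, with edgeR adjusted p-values of 0.0364 and 0.0193, beside 40.6% of the genes of that fit. The H2-Ab1 call was lost without basal knockout-labelled replicate 1 (0.0597) or 3 (0.0781), or luminal knockout-labelled replicate 1 (0.063) or 2 (0.0797).

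On a scale that corrects for gene length, Cd74 had the highest mean level of the 6 genes in the basal groups and the luminal controls, at 37.9 CPM per kb in basal controls, 21.1 in basal knockout-labelled and 11 in luminal control libraries. In luminal knockout-labelled libraries H2-DMa had the highest mean, 5.25 ± 1.23 CPM per kb against 3.15 ± 1.23 for Cd74 (SD, n = 3 each). This rank is uncertain, because the H2-DMa count may include reads from the overlapping Brd2. Ciita had the lowest mean in every group, from 0.0775 to 0.286 CPM per kb. The chains lay between, and in basal controls H2-Ab1 (7.88 ± 1.76 CPM per kb), H2-Aa (7.55 ± 5.74) and H2-Eb1 (4.77 ± 4.38) did not differ beyond their spread.

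The ratio of Cd74 to the mean of the 3 chains, both in CPM per kb, differed between the cell types in most libraries. In basal controls it was 9.01, 9.93 and 2.51, and in basal knockout-labelled libraries 9.99, 5.18 and 4.77. In luminal cells it was 3.42, 2.75 and 2.32 in controls and 3.27, 2.37 and 2.75 in knockout-labelled libraries. The luminal ratios were narrow and nearly equal in both genotypes, with means of 2.83 ± 0.55 and 2.80 ± 0.46 (SD, n = 3 each), although the Cd74 level itself spanned 2.51 to 28.0 CPM over those libraries. Basal control replicate 3 had a ratio within the luminal range, and the other 5 basal libraries lay above every luminal one. No test was made of this ratio.

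**Figure D2:**
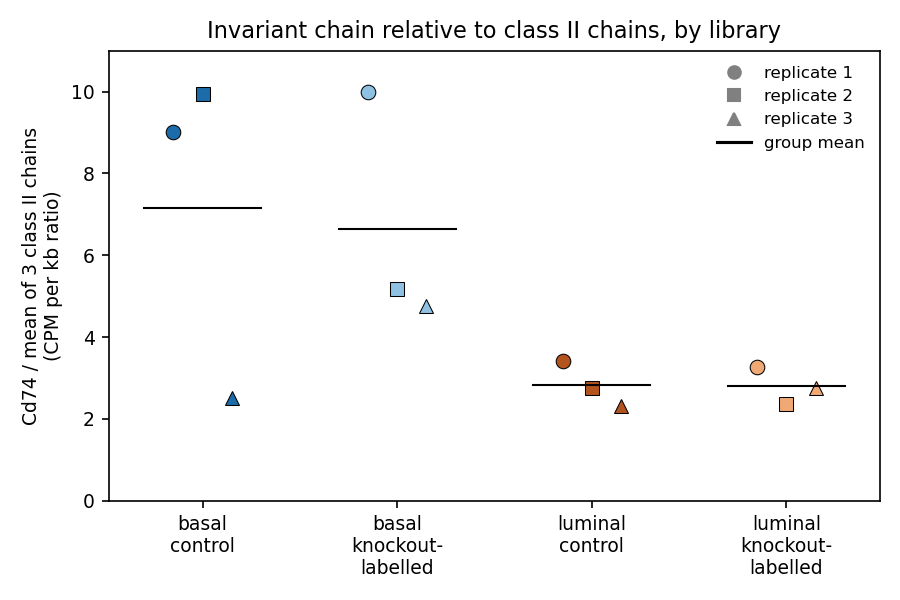
Ratio of Cd74 to the mean of H2-Aa, H2-Ab1 and H2-Eb1 in CPM per kb (y axis, linear from 0) in each library, by group (x axis); symbols give the replicate number and black lines the group means. Luminal ratios lay between 2.32 and 3.42, and basal ratios between 4.77 and 9.99 except for 2.51 in basal control replicate 3.

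Leukocyte and endothelial marker sums, like the chains, were highest among the controls of each cell type in replicate 3. The summed level of the 3 chains was 14.6, 18.6 and 43.1 CPM in basal controls, 12, 7.35 and 15.4 CPM in basal knockout-labelled, 5.61, 11.5 and 31.7 CPM in luminal control and 3.89, 2.77 and 5.47 CPM in luminal knockout-labelled libraries. The summed level of 8 leukocyte markers, among them Ptprc (CD45), was 1.14, 2.95 and 15.3 CPM in basal controls and 1.5, 2.22 and 11.3 CPM in luminal controls. In knockout-labelled libraries it was 2.33 to 3.15 CPM in basal and 1.20 to 1.53 CPM in luminal cells. Replicate 3 of the controls was thus highest in both sums in both cell types, and the luminal knockout-labelled libraries were low in both. The other class II genes did not all share this. Control replicate 3 had the lowest Cd74 of the basal controls (39.9 CPM) and the highest of the luminal controls (28.0 CPM), and the same held for H2-DMa (2.03 and 3.32 CPM). Ciita in control replicate 3 was the highest of the basal (1.94 CPM) and the lowest of the luminal controls (0.302 CPM). The other basal controls had leukocyte sums below the highest basal knockout-labelled library.

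Ptprc itself, the defining leukocyte marker, stood at 0.207, 0.447 and 3.33 CPM in basal controls and at 0, 0.370 and 2.21 CPM in luminal controls. It stood at 0.217 to 0.806 CPM in basal and at 0 to 0.267 CPM in luminal knockout-labelled libraries. The mean CPM was lower under the knockout label for 8 of the 8 leukocyte markers in luminal cells and for 7 of 8 in basal cells. These means include control replicate 3, the highest control in the leukocyte sum. The Ptprc values of the other controls overlapped those of the knockout-labelled libraries in both cell types. From 0 to 3 of the 8 had 0 counts in a library, and 1 of the 8 passed the filter on low counts. The part of leukocyte RNA in the class II differences was not tested. In bulk RNA, fewer cells of a type and less RNA per cell cannot be told apart.

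Endothelial cells can also express class II. The summed level of 6 endothelial markers, such as Pecam1, Cdh5 and Kdr, ran from 47.8 to 128 CPM in basal controls and from 71.5 to 88.1 CPM in basal knockout-labelled libraries. In luminal cells it was 19.2, 47.3 and 102 CPM in controls and 12.1, 18.1 and 26.3 CPM in knockout-labelled libraries. All 6 had a negative log2 fold in luminal knockout-labelled libraries, with a median of -1.42, and 0 of 6 were called. None of the 6 was at 0 counts in any library. In luminal against basal controls all 6 folds were negative (median -0.52) and 0 were called, beside 33.2% of all tested genes. Among knockout-labelled libraries 5 of 6 were called lower in luminal cells (median -2.15), beside 40.6%. Their part in the class II differences was not tested.

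Lists for the professional antigen-presenting cells were low. The 10 macrophage markers summed to 13.7 to 29.9 CPM in luminal controls and 14.2 to 30.8 CPM in luminal knockout-labelled libraries. Cd68 had much of this sum, with means of 12.6 and 12.7 CPM. The mean CPM was lower under the knockout label for 7 of the 10 markers and higher for 3, Csf1r, Cd68 and Aif1. Lyz2, which encodes lysozyme, stood at 1.12, 1.85 and 7.24 CPM in luminal controls and at 0.399, 0.358 and 0.667 CPM in luminal knockout-labelled libraries (log2 fold -2.78, SE 1.15, edgeR adjusted p = 0.238). These values did not overlap and had the direction of the chains. Csf1r, the receptor of macrophage colony-stimulating factor, stood at 0.936 to 3.82 CPM and at 5.37 to 13.8 CPM (log2 fold 2.16, SE 0.71, edgeR adjusted p = 0.134), in the opposite direction. Of the 10 markers 5 were detected in every library, and Adgre1, which encodes F4/80, had 0 counts in 7 of 12.

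The 9 dendritic cell markers summed to 6.08 to 13.1 CPM in luminal controls and 3.67 to 8.01 CPM in luminal knockout-labelled libraries, with a lower mean for 5 and a higher one for 3. Zbtb46, Xcr1 and Batf3 were detected in every library, and Flt3, which marks dendritic cells and their precursors, had 0 counts in 9 of 12. The 7 B cell markers summed to 2.43 to 3.82 CPM in luminal controls and 1.79 to 3.29 CPM in luminal knockout-labelled libraries, with a lower mean for 5 and a higher one for 1. Cd79a and Cd79b were detected in every library, and the B cell antigen gene Ms4a1 had 0 counts in 10 of 12. The 6 T cell markers summed to 2.71 to 3.05 CPM in luminal controls and 1.30 to 1.43 CPM in luminal knockout-labelled libraries, with a lower mean for 5 and a higher one for 1. Lck was detected in every library, and Cd8a had 0 counts in 11 of 12.

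In basal libraries the ranges of the macrophage, dendritic, B cell and T cell sums overlapped between control and knockout-labelled libraries. The 7 fibroblast markers summed to 448 to 574 CPM in basal controls and 1641 to 2705 CPM in basal knockout-labelled libraries. There 2 of 7 were called higher, beside 0.671% of all tested genes called in either direction. In luminal against basal controls 1 of the 7 was called higher and 1 lower, beside 33.2% of all tested genes. Among knockout-labelled libraries 6 of 7 were called lower in luminal cells (median log2 fold -3.51), beside 40.6%. The parts of these cell types in the class II values were not tested.

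Markers of luminal subsets also differed between the luminal groups. The 7 luminal progenitor markers, such as Kit and Elf5, summed to 2645 to 2975 CPM in luminal controls and 1509 to 2281 CPM in luminal knockout-labelled libraries, with 6 of 7 log2 folds negative (median -0.91) and 0 of 7 called. The 7 hormone-sensing markers, such as Esr1 and Prlr, summed to 1376 to 2714 CPM and 3062 to 4773 CPM, with 5 of 7 log2 folds positive (median 1.05) and 0 of 7 called. Neither pair of sums overlapped. The part of luminal subsets in the class II values was not tested.

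**Figure D3:**
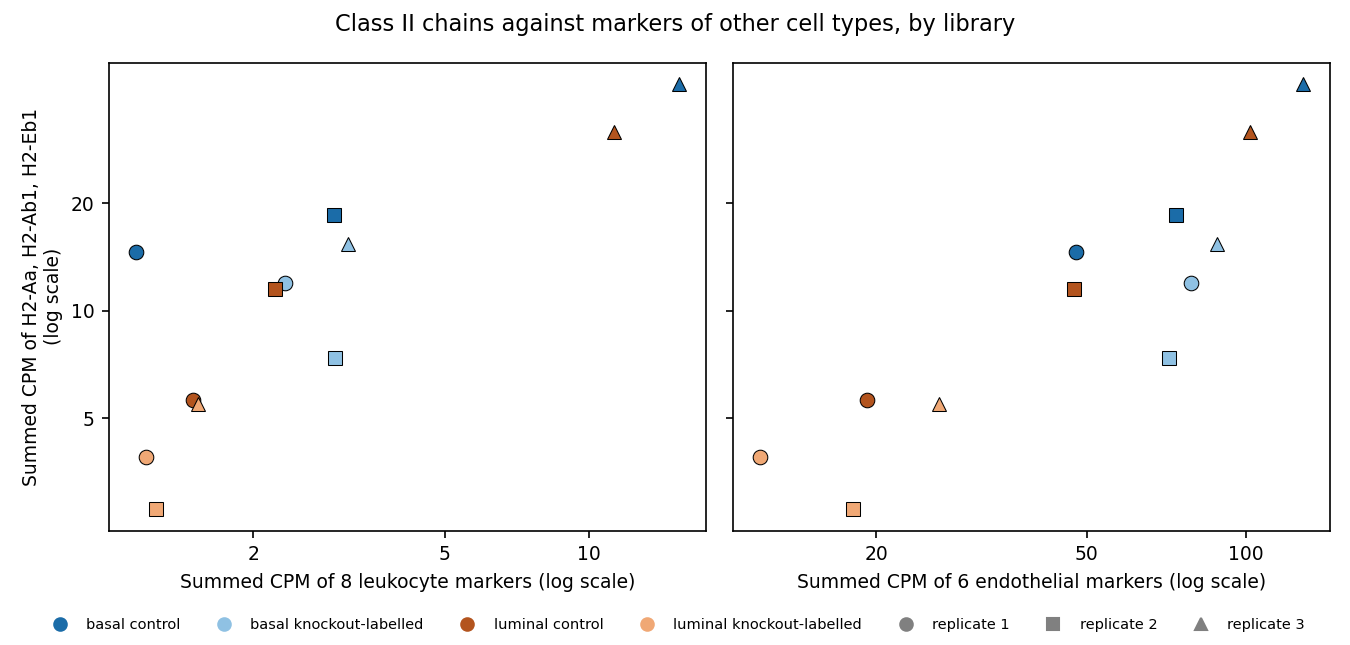
Summed CPM of H2-Aa, H2-Ab1 and H2-Eb1 (y axis, log scale) against the summed CPM of 8 leukocyte markers (left) and 6 endothelial markers (right; x axes, log scale), with 1 point per library, colour for the group and symbol for the replicate number. The replicate 3 controls of both cell types lie at the upper right in both panels, at 43.1 and 31.7 CPM of the chains.

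Without both replicate 3 controls, an alternative chosen after seeing the data, the luminal log2 folds were -1.07 for Cd74, -0.19 for H2-Aa, -1.24 for H2-Ab1 and -1.58 for H2-Eb1, with edgeR adjusted p-values of 0.218, 0.864, 0.137 and 0.0588. In basal cells they were -1.0, -0.39, -0.48 and -0.76. Cd74 stayed lower in luminal than in basal controls without them, at -2.70 (edgeR adjusted p = 0.00354), and H2-Aa was then called lower as well, at -1.58 (edgeR adjusted p = 0.0454). That fit called 31.6% of its genes in this comparison. Ciita lost its call (edgeR adjusted p = 0.131).

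The rest of the class II pathway was read from lists of further chains and peptide loading, of promoter factors and turnover, and of costimulatory molecules. Of 9 tested genes for other chains and peptide loading, 0 were called between knockout-labelled and control libraries in either cell type. Over all tested genes 0.671% were called in basal and 3.03% in luminal cells, the shares for each such count below. Those with the lowest p in luminal cells were lysosomal proteases, Ctsd with a log2 fold of 0.73 (SE 0.19, edgeR adjusted p = 0.0704) and Ctsb with 0.85 (SE 0.24, edgeR adjusted p = 0.0892). Ctss, the protease that removes the invariant chain in many antigen-presenting cells, stood at 0.561, 1.20 and 5.93 CPM in luminal controls and at 0.199, 0.447 and 0.400 CPM in luminal knockout-labelled libraries, which did not overlap. Its fold was not called (edgeR adjusted p = 0.252), and luminal control replicate 3 was again the highest.

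Between the cell types, 1 gene of this list was called higher and 1 lower in luminal controls, beside 33.2% of all tested genes. H2-Oa, a chain of the H2-DM inhibitor H2-O, had 39 counts over the 3 luminal controls and 3 over the 3 basal controls, a ratio of 13.1 with an exact 95% counting interval of 4.16 to 66.2 that covers counting error only (edgeR adjusted p = 0.0122). Over the 3 basal knockout-labelled libraries H2-Oa had 2 counts. It passed the filter on low counts only through luminal libraries, where it is high, so its call is not independent of that filter. Ctsl, another lysosomal protease, was lower by a log2 fold of -1.89 (SE 0.41, edgeR adjusted p = 0.00417). Among the knockout-labelled libraries, Ctsl was lower in luminal cells by -2.40 and Ctsd higher by 0.77, with edgeR adjusted p-values of 0.000916 and 0.00821.

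Of 8 tested genes for promoter factors and turnover, 0 were called between knockout-labelled and control libraries in either cell type. In luminal cells Rfxap and Nfya, subunits of the X box and Y box complexes, had log2 folds of -0.38 and -0.32, with edgeR adjusted p-values of 0.368 and 0.408. In basal cells March8 and Rfx5, another X box subunit, had folds of 0.34 and -0.31, with edgeR adjusted p-values of 0.844 and 0.902. In luminal against basal controls Nfyb, another Y box subunit, was lower by -1.26 (SE 0.22, edgeR adjusted p = 0.00103). March8, a ubiquitin ligase that removes surface proteins including class II, was higher by 0.95 (SE 0.23, edgeR adjusted p = 0.00746).

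Of 3 tested costimulatory genes, 0 were called between knockout-labelled and control libraries in either cell type. Cd274, which encodes the inhibitory ligand PD-L1, stood at 2.06, 2.96 and 5.53 CPM in luminal controls and at 9.47, 10.9 and 29.2 CPM in luminal knockout-labelled libraries (log2 fold 2.24, SE 0.58, edgeR adjusted p = 0.0649). These groups did not overlap, in the opposite direction to the chains. In luminal against basal controls Icosl, the ligand of ICOS, was lower by -2.46 (edgeR adjusted p = 2.01e-05) and Cd40 was higher by 1.61 (edgeR adjusted p = 0.0497). Cd40 reached at most 0.415 CPM in basal controls and 0.652 CPM in basal knockout-labelled libraries. It passed the filter on low counts only through luminal libraries, where it is high, so its call is not independent of that filter.

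Interferon gamma is the best known inducer of Ciita, whose log2 fold was 0.22 (SE 0.60) in luminal and -0.94 (SE 0.52) in basal cells. Most genes of the interferon gamma pathway had positive folds, 10 of 13 in luminal and 11 of 13 in basal cells. Of 13 tested genes, 3 were called higher in luminal knockout-labelled libraries and 0 lower, beside 3.03% of all tested genes called in either direction. The median log2 fold of the 13 was 0.96, beside -0.03 over all tested genes. Of the called genes, the chemokine gene Cxcl10 rose from 26.5 ± 13.0 to 71.0 ± 18.8 CPM (SD, n = 3 each), a log2 fold of 1.42 (edgeR adjusted p = 0.0399). The guanylate-binding protein gene Gbp2 rose by a log2 fold of 1.38 (edgeR adjusted p = 0.0402). In basal cells 1 of 13 was called, beside 0.671% of all tested genes. It was Cxcl10, with a log2 fold of 1.69 (SE 0.33, edgeR adjusted p = 0.0469), and the median was 0.55. Ifng itself had 0 counts in 11 of 12 libraries. The part of interferon gamma in the class II values was not tested.

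The 16 MHC class I presentation genes had folds of the same sign as the interferon genes in most cases, and 0 of 16 were called in either cell type. In luminal cells 13 of 16 had a positive log2 fold, with a median of 0.48, and in basal cells 11 of 16 did, with a median of 0.24. Tapbp, which encodes the class I loading factor tapasin, stood at 116, 105 and 113 CPM in luminal controls and at 157, 187 and 192 CPM in luminal knockout-labelled libraries, which did not overlap (log2 fold 0.68, SE 0.17, edgeR adjusted p = 0.0625). The immunoproteasome gene Psmb9 had a fold of 0.98 (SE 0.31, edgeR adjusted p = 0.115). In luminal against basal controls 3 of 16 class I genes were higher and 2 lower, beside 33.2% of all tested genes called, among them Psmb9 (log2 fold 1.37, edgeR adjusted p = 0.00634) and, in the other direction, the class I transactivator gene Nlrc5 (-1.80, edgeR adjusted p = 0.0095), a relative of Ciita. Tapbp, Psmb9 and the class II chains share control libraries in these comparisons.

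**Figure D4:**
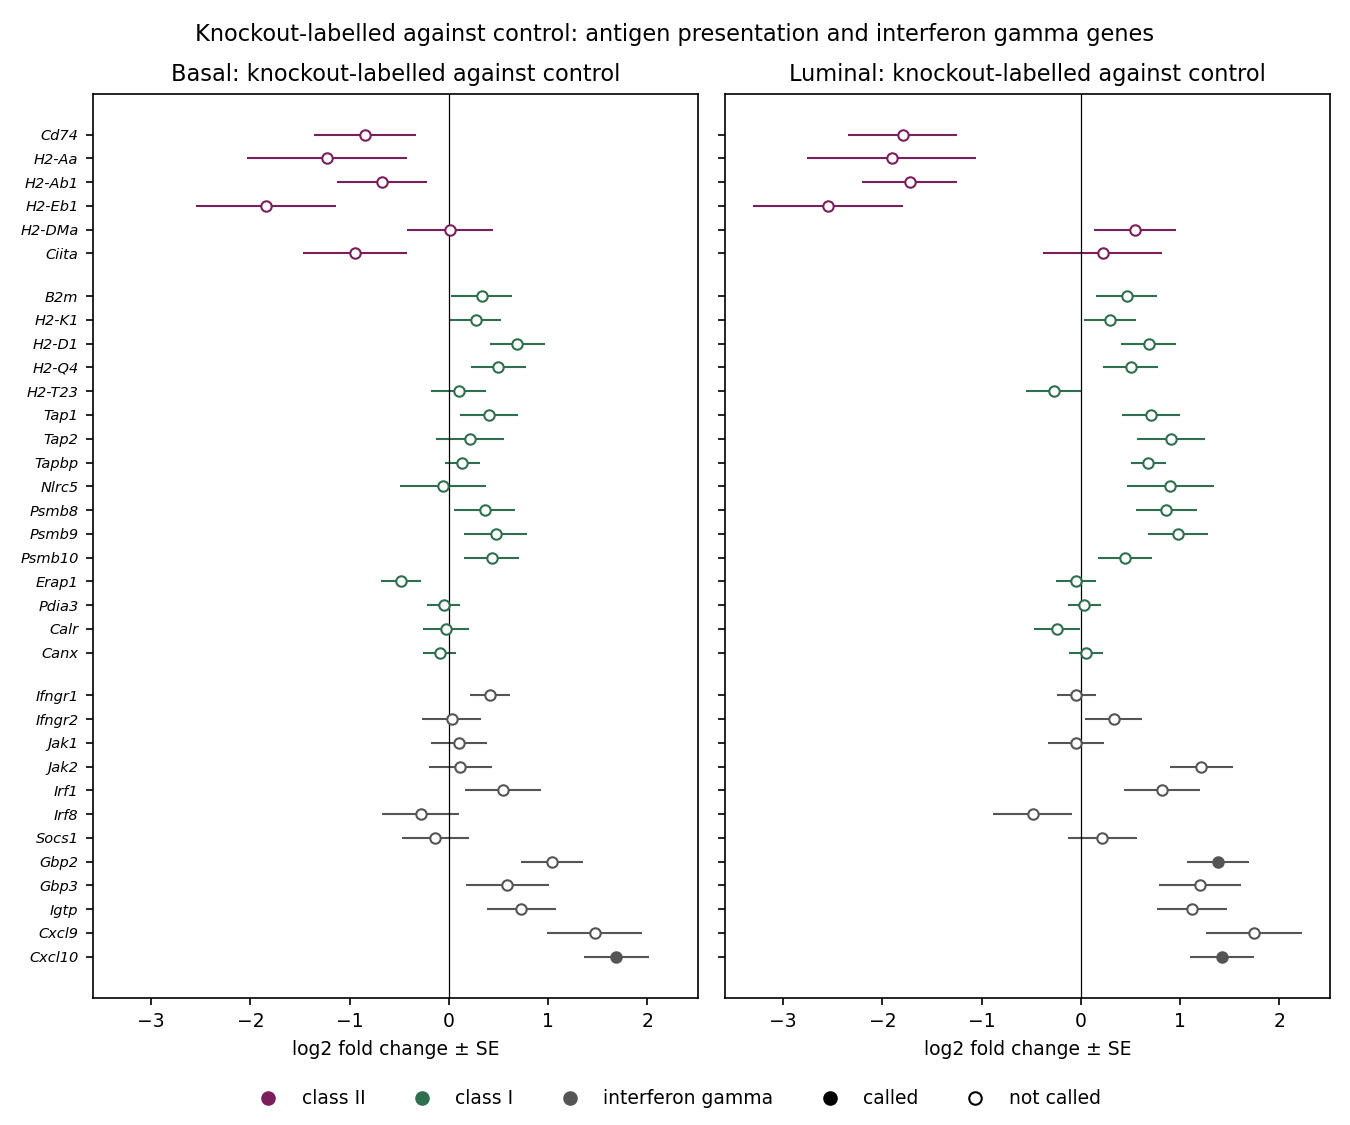
Log2 fold change of knockout-labelled against control libraries (x axis, with SE bars) for the 6 class II, 16 class I and 12 of the 13 interferon gamma pathway genes tested (y axis), in basal (left) and luminal (right) cells; filled points passed an adjusted p under 0.05. In luminal cells Cd74, H2-Aa, H2-Ab1 and H2-Eb1 lie between -2.55 and -1.73, and Gbp2 and Cxcl10, the filled points, lie at 1.38 and 1.42.

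The genes whose pattern was most like the mean log2 CPM of the 6 class II genes were listed by Pearson correlation over the 12 libraries, as a description. This mean mixes unlike patterns. By levels, Cd74 and the chains correlated with one another at 0.73 to 0.91, and H2-DMa with the other genes at -0.36 to -0.22. By deviations from the group means, Ciita correlated at -0.51 with Cd74 and at -0.23 to -0.06 with the chains. By levels, the 10 nearest were Ssb (0.96), Rrp8, Fam133b, Api5, Nle1, Vbp1, Exosc10, Rsl1d1, Erg and Wdr77 (0.93). By deviations from the group means, they were Erg (0.94), Snord47, Ifit1, Acer2, Ascc3, Pcmt1, Erc1, Slfn4, Uchl4 and Carnmt1 (0.92). Erg, which encodes an endothelial transcription factor, was the single gene in both lists, with means of 3.89, 2.68, 1.81 and 0.337 CPM in basal control, basal knockout-labelled, luminal control and luminal knockout-labelled libraries. These libraries share replicate numbers and the low level of the class II genes, so the points are not independent.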

How the data were processed

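Total RNA was sequenced on an Illumina HiSeq from TruSeq RNA libraries, per the labels' protocols. The submitters' processing notes name CASAVA 1.8.2, featureCounts and mm10, and give no roles for them. For the aligner, annotation and strand setting, none was given in the sources used here. The table as deposited holds raw counts of reads per gene, which the authors did not normalize, for 27179 Entrez genes, 859 of them with no symbol. Its columns differed from the separate library tables in 0 values.

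The test was edgeR's quasi-likelihood F test (edgeR 4.0.16, R 4.3.3), with robust dispersion and TMM factors, over 4 group means with 8 residual degrees of freedom. The default filter by group asked for the CPM of 10 counts in a library of median size, in at least as many libraries as the smallest group holds. It also asked for 15 counts in total. The default filter left 14903 genes, over which p-values were adjusted by Benjamini-Hochberg, and a gene is called at an adjusted p under 0.05. SE is the size of the log2 fold divided by the square root of F. CPM are counts over the TMM-scaled library size, and CPM per kb divides by the counted length in the deposited table. The common biological coefficient of variation was 32.6%. The test was checked on simulated data.

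The 6 genes, the 17 gene lists and the tests were chosen with earlier results of these data known. Named were the 6 genes, Foxp1, per list the called genes (up to 4) or the 2 with the lowest p, and the 10 genes nearest in pattern. H2-DMb1, Ctss, Csf1r, Lyz2, Ptprc, the other marker genes given by name and Erg's levels were chosen after their values were seen. Of the interferon gamma list, 1 gene is not reported here and stays in the counts. Positions and promoters are from RefSeq on GRCm38. The chains have similar copies in the genome, among which the counting could have shared reads.

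Deviations from group means correlated between same-numbered libraries at 0.36, 0.30 and 0.53 for luminal knockout-labelled against control and at 0.31, 0.42 and 0.47 for control luminal against basal. In these comparisons the numbers were taken to pair the libraries, as read from the data. The labels do not say that a number marks shared animals. The correlations were -0.087, 0.36 and 0.13 for basal knockout-labelled against control and 0.087, 0.42 and 0.42 for knockout-labelled luminal against basal. The main fit did not use the pairing, which entered only in the alternatives with a replicate block. That block applied each number to every library in the fit. The labels call the replicates biological and do not describe the animals or pools behind them, so p-values measure the spread between these libraries. No replicates agreed within sampling noise. Alternatives were other scalings, no filter, the replicate block, fewer groups, limma-voom (limma 3.58.1), DESeq2 1.42.0 and leaving out each library.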

Additional observations from a re-analysis of the deposited data

How the results depend on the processing

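With 3 libraries per group, levels of a few CPM and 3 to 21 counts of Ciita, depth and the spread between replicates limit these comparisons. The mean CPM of the 6 genes stayed within 1 SD in all 24 gene and group combinations when scaled by library size alone. Of the 6 class II genes, the luminal knockout-labelled comparison called 2 with the replicate block, 3 with DESeq2, and 1 with the block on only the groups compared (9.86% of all genes in that fit). On leaving out each library it called 0 to 1, beside 0.828% to 4.69% of all genes in those fits. The luminal against basal comparison called 0 to 2 on leaving out each library in controls, beside 23.1% to 34.1%. In knockout-labelled libraries it called 1 to 2, beside 31.2% to 44.0%. In those libraries it called 4 with only the groups compared, with or without the block (51.2% and 40.6% of all genes in those fits), and 4 without both replicate 3 controls (46.0%). H2-Eb1 was also called there with the block on all libraries (edgeR adjusted p = 0.0156, beside 51.2% of all genes). The block over all 12 libraries lost no call of the 6 genes, and the calls it added are those named.

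Over all genes, the basal knockout-labelled count of 100 became 59 with library size alone, 236 with the replicate block, 151 with only the groups compared, 417 with DESeq2, 267 without both replicate 3 controls, 16 with the block on only the groups compared, and 17 to 142 on leaving out each library. The luminal count of 451 became 1097 with the replicate block, 199 with only the groups compared, 1089 with DESeq2, 1097 without both replicate 3 controls, 1355 with the block on only the groups compared, and 127 (without luminal control replicate 2) to 716 (without basal control replicate 3) on leaving out each library. The interaction count of 41 became 106 with the replicate block, 22 with limma-voom, 354 with DESeq2, 121 without both replicate 3 controls, and 10 to 86 on leaving out each library.

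Signs changed for some folds that were not called, and the cause was not tested. The basal H2-DMa log2 fold was -0.094 with library size alone, -0.043 with the replicate block, -0.18 with limma-voom, -0.057 without both replicate 3 controls, -0.12 with the block on only the groups compared, and -0.25 to 0.41 on leaving out each library. The luminal Ciita fold was -0.017 with limma-voom and -0.39 to 0.65 on leaving out each library. In luminal against basal controls, leaving out each library gave -2.45 to 0.16 for H2-Aa and -1.80 to 0.30 for H2-Eb1. The interaction was -1.51 to 1.09 for H2-Aa and -1.78 to 0.32 for H2-Eb1 on leaving out each library, and 0.20 for H2-Aa without both replicate 3 controls. With only the groups compared, Ciita could not be fitted among the luminal libraries or among the knockout-labelled libraries, because it did not pass the filter there; the interaction uses all groups and has no such alternative. Leaving out both replicate 3 controls, and the block on only the groups compared, were chosen after seeing the data.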
